A study of Mus musculus with 9 samples.

Results

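Cultured mouse spermatogonial stem cells (SSCs), the cells from which sperm production is renewed, were compared with and without a catalytically dead form of the protein arginine methyltransferase PRMT5. All libraries came from SSCs of Prmt5 flox/flox; Rosa26-CreERT2 mice treated with 1 µM 4OHT, the drug that switches on Cre and deletes the floxed gene. The comparison took 3 libraries labelled MU, read as overexpression of PRMT5 (E444Q), against 3 libraries of 4OHT alone, which are 6 of the 9 libraries of the series, and used every one of the 22452 genes that passed a filter on low counts. The other 3 libraries, labelled OE and read as overexpression of PRMT5 (WT), are used only where a response is set beside that to the wild-type enzyme. Both transfected groups were set against the same 4OHT libraries. The sources used here do not say whether cells with 4OHT alone received an empty vector, whether the replicates were separate cultures, or from which species the constructs came. The study describes fibroblast feeder cells for other SSC cultures, and whether the cells sequenced here were grown on them is not given in the sources used here. The 4OHT-alone libraries hold 78751996, 87121942 and 95370711 counts, and the PRMT5 (E444Q) libraries 192033300, 365719548 and 230619129. The groups therefore differ in depth, and values are given as CPM, counts relative to a library's total and adjusted between libraries by TMM. Replicates of 4OHT alone varied more than those of PRMT5 (E444Q), with median coefficients of variation of 6.56% and 2.02% over well-expressed genes.

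PRMT5 places symmetric dimethyl marks on arginines of histones and of RNA-processing proteins, among them the Sm proteins of the spliceosome. It works in a complex with WDR77 (also called MEP50), and partners such as CLNS1A, RIOK1 and COPRS steer it to different substrates. In the germline it is known for its roles in primordial germ cells and in spermatogonia. The E444Q exchange replaces an acidic residue of the active site, and a protein made from such a construct can still be present, and bind partners, without transferring methyl groups. Counts per gene cannot show the exchange itself. In the annotated mouse gene (ENSMUSG00000023110, GRCm38 chromosome 14, 54507187 to 54517525, minus strand), the codon of this residue is GAG, glutamate, and lies in coding exon 12 of 17, at 54510922 to 54510924. The coding stretch from codon 431 to codon 457 is printed because it holds the residue that defines the construct, with the exchanged codon in capitals.
Prmt5: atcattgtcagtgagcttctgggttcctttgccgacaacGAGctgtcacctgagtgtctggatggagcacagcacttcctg

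Prmt5 was measured at 31.9, 30.8 and 28.2 CPM with 4OHT alone and 145, 147 and 146 CPM with PRMT5 (E444Q). The groups did not overlap, and the gene was 4.82-fold higher with the construct (log2 fold change 2.27, standard error 0.0513, adjusted p = 7.61e-13, edgeR's quasi-likelihood test with Benjamini-Hochberg adjustment over all genes, which gives every adjusted p of the comparison). With PRMT5 (WT) it reached 1072, 1071 and 1085 CPM, so that the mutant transcript was present at a lower level than the wild-type one (log2 fold change -2.88, standard error 0.0515, adjusted p = 1.09e-12). Every contrast of the constructs below carries this difference in dose. The transcript left with 4OHT alone counts reads over the whole gene, including exons outside the deleted part, and does not by itself measure deletion.

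The other members of the methyltransferase family moved little. Prmt1, which makes most asymmetric dimethylarginine, was at 262 ± 35.6 CPM with 4OHT alone and 276 ± 11.2 CPM with PRMT5 (E444Q) (mean ± SD, n = 3; log2 fold change 0.08, adjusted p = 0.499), a difference smaller than the spread between replicates. Prmt9, the other known symmetric enzyme of the family, rose slightly (log2 fold change 0.25, adjusted p = 0.00308), as did Prmt3 (0.22). Carm1 fell by 0.25 on the log2 scale (adjusted p = 0.0249), a call that was lost under upper-quartile scaling, without a filter, and without 4OHT replicate 3, MU replicate 1 or MU replicate 3. Among the partners, Wdr77 rose from 159 to 252 CPM (log2 fold change 0.67) and Coprs by 0.65, Riok1 fell by 0.48, and Clns1a did not pass the test (log2 fold change -0.04, adjusted p = 0.534).

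Across the transcriptome, 6620 genes (29.5% of those tested) were higher with PRMT5 (E444Q) and 5951 (26.5%) were lower at an adjusted p below 0.05, which is 56% in either direction. Of the 16710 protein-coding genes tested, 34.0% were higher and 31.8% lower. Most lists below hold protein-coding genes, for which these shares are the closer background. At least 2-fold changes among the called genes numbered 2093 higher (9.32%) and 2288 lower (10.2%). The median log2 fold change of all genes was 0.043 and its quartiles were -0.497 and 0.524, so most called differences were below 2-fold. No overlap between the 3 and 3 libraries was seen for 14340 genes (63.9%). Of the 12571 called genes 12317 had no overlap, so that a lack of overlap adds little to a call. With 3 libraries a group, an exact permutation test of a single gene cannot go below p = 0.1 (two-sided), and the calls rest on the spread shared across genes. Whether the construct, the transfection or the history of the cell line accounts for any of these differences cannot be told apart, since all 3 separate the groups in the same way.

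**Figure D1:**
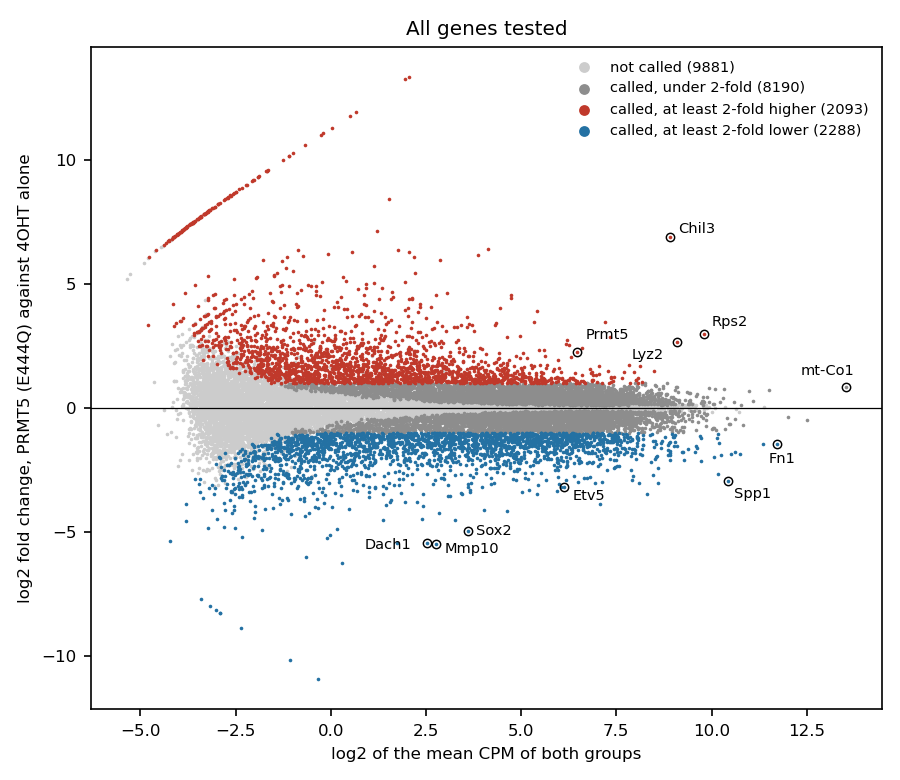
Log2 fold change of PRMT5 (E444Q) against 4OHT alone (vertical axis) against the mean expression of each of the 22452 genes tested (horizontal axis, log scale), one point per gene. Genes called at least 2-fold higher (2093) or lower (2288) are coloured, and Prmt5 and a set of named genes are labelled. The points in a straight line at the upper left are genes with 0 counts in every library with 4OHT alone, whose height depends on the prior count and is no measured fold.

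Among protein-coding genes with a mean of at least 10 CPM in the higher group, the leading rises were mostly in genes of myeloid cells, and the leading falls included genes of matrix remodelling and of development. By fold, the first of those that rose were Chil3, a chitinase-like protein of macrophages (log2 fold change 6.89, standard error 0.106, adjusted p = 4.54e-14), Ear2, an eosinophil-type ribonuclease (6.39), Car4, a membrane carbonic anhydrase (5.97), and Fpr1, the formyl peptide receptor (4.64). They were followed by the haematopoietic adaptor Sla (4.56), Cybb, the catalytic subunit of the phagocyte oxidase (4.41), Ptprc, which encodes CD45 (4.07), and lipoprotein lipase, Lpl (3.90). Chil3 was at 8.29, 7.04 and 8.75 CPM with 4OHT alone and 953, 973 and 931 CPM with PRMT5 (E444Q), with the groups far apart. The leading genes that fell, by the same rule, were Mmp10, a matrix metalloproteinase (log2 fold change -5.50, standard error 0.274, adjusted p = 1.03e-09), the transcription regulators Dach1 (-5.44), Sox2 (-4.94) and Skor1 (-4.49), the prolactin-family gene Prl2c2 (-4.48), the basophil protease Mcpt8 (-4.15), the orphan receptor Gpr149 (-4.11) and Gm9008 (-3.97). Sox2, a pluripotency factor, was at 21.0, 27.3 and 21.9 CPM with 4OHT alone and 0.830, 0.748 and 0.707 CPM with PRMT5 (E444Q), and every library with 4OHT alone was above every library with the construct. Prl2c2 and Ear2 belong to families of near-identical copies among which reads may have been divided.

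By the difference in CPM, which is weighted to abundant transcripts, the genes that fell were Fn1, fibronectin (4957 to 1822 CPM), Spp1, osteopontin (2427 to 312 CPM), Eef1a1, the main elongation factor of translation (6835 to 4838 CPM), and the matrix proteins Fbln2 (2677 to 739 CPM), Thbs1 (2456 to 708 CPM) and Tnc (2007 to 315 CPM). Those that rose were the mitochondrially encoded mt-Co1 (8494 to 15216 CPM), mt-Cytb (2204 to 3672 CPM) and mt-Nd5 (1547 to 2473 CPM), the ribosomal protein gene Rps2 (200.1 to 1572 CPM), Chil3, and the lysozyme gene of myeloid cells, Lyz2 (151 to 944 CPM). Rps2 is reported as uncertain because it has near-identical pseudogene copies that moved the opposite way. Rps2-ps13 went from 580.3 to 52.3 CPM and Rps2-ps10 from 347 to 112 CPM. Rps2 summed with the tested genes named as its copies, 7 genes in all, was at 1153, 1289 and 951.9 CPM with 4OHT alone and 1723, 1797 and 1744 CPM with PRMT5 (E444Q), a far smaller contrast than Rps2 alone. How reads that fit several copies were assigned is not given in the sources used here. The share of counts in mitochondrially encoded genes was 1.39% to 1.97% per library with 4OHT alone and 2.66% to 2.86% with the construct. Of 13 mitochondrially encoded protein genes, 8 rose and 1 fell (median 0.438), while 0.824 was the median with PRMT5 (WT).

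**Figure D2:**
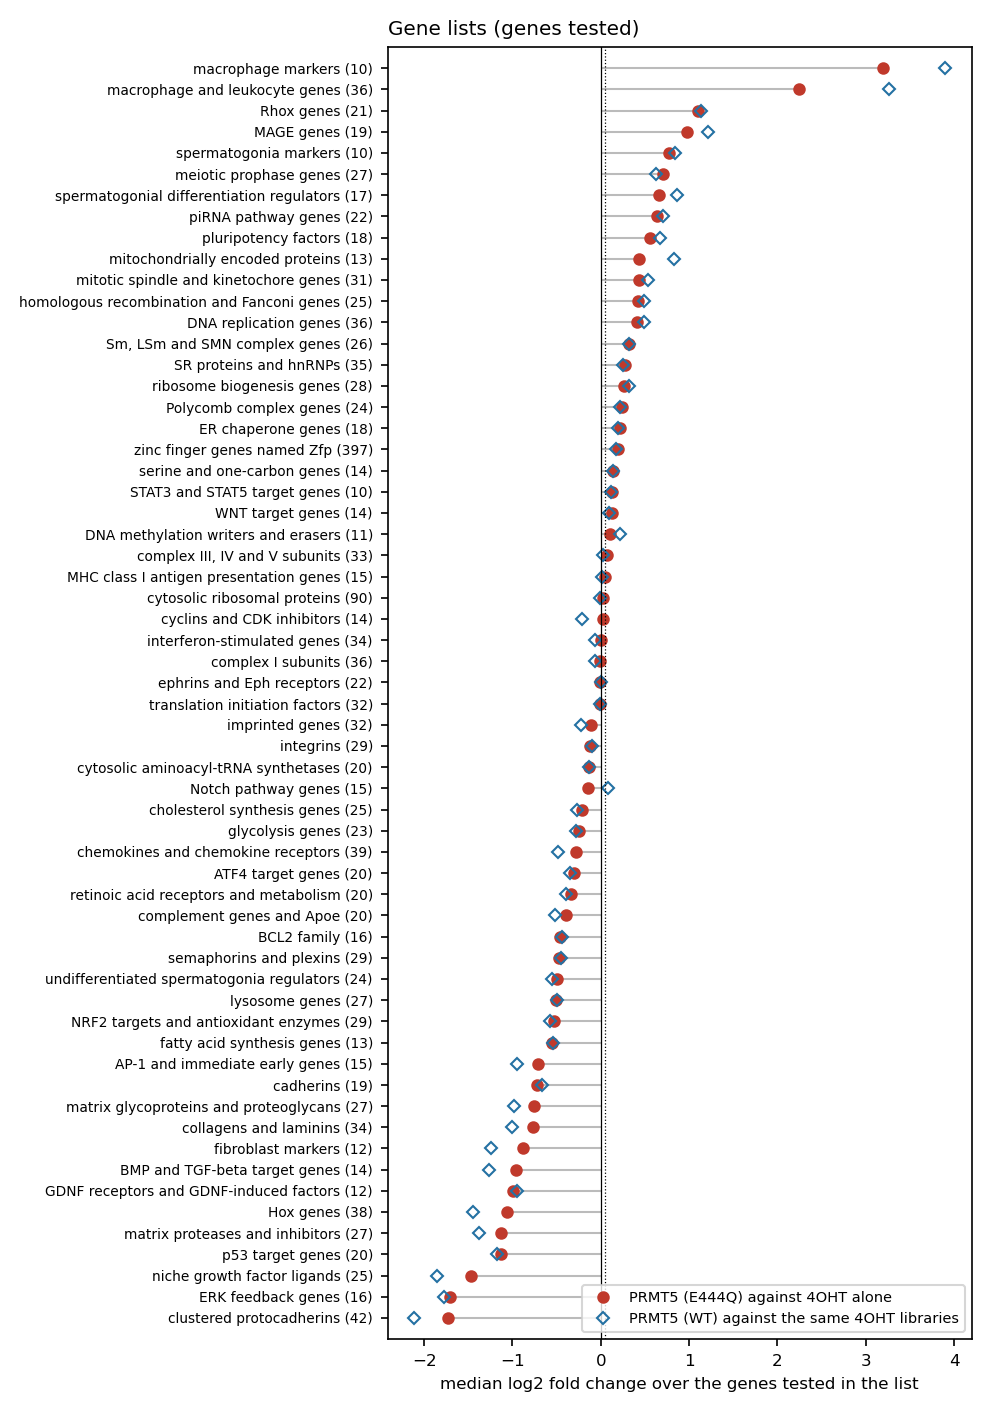
Median log2 fold change against 4OHT alone of the tested members of each gene list (horizontal axis), with PRMT5 (E444Q) as dots and PRMT5 (WT) as diamonds, one row per list. The dotted line is the median of all 22452 genes with PRMT5 (E444Q), 0.043. Lists with fewer than 10 tested genes and some of the large families are left out. Of the lists shown, the macrophage lists lie farthest to the right, and the clustered protocadherins and ERK feedback genes farthest to the left. Both constructs were set against the same 4OHT libraries.

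The labelled cell type was checked first. Germ cell identity was present in every library: the 10 spermatogonia markers summed to 2040.0 to 2120.0 CPM with 4OHT alone and 3010.0 to 3110.0 CPM with PRMT5 (E444Q), and 7 rose and 2 fell. Ddx4, the germ cell RNA helicase, rose from 298 to 551 CPM (log2 fold change 0.89, adjusted p = 5.45e-09), with Lin28a (0.99) and Dppa4 (1.37). Zbtb16, which encodes PLZF, a marker of undifferentiated spermatogonia, fell from 291 to 183 CPM (-0.67). The summed level of germ cell markers thus rose while some stem cell genes within the list fell, and the same sums with PRMT5 (WT) were 3240.0 to 3280.0 CPM. In bulk RNA, fewer cells of a type and less RNA per cell cannot be told apart, which applies to each list below.

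SSCs in culture depend on GDNF, which signals through the receptor RET and its co-receptor GFRA1 and maintains transcription factors such as ETV5, BCL6B and T (brachyury). Of the 12 tested genes of this pathway, 1 rose and 9 fell, with a median log2 fold change of -0.996. Gfra1 was at 123, 116 and 122 CPM with 4OHT alone and 28.3, 27.6 and 26.7 CPM with PRMT5 (E444Q), a fall of 4.37-fold without overlap (log2 fold change -2.13, standard error 0.0522, adjusted p = 1.64e-12). Ret was at 342, 360.0 and 428 CPM with 4OHT alone and 194, 195 and 194 CPM with PRMT5 (E444Q), again without overlap (log2 fold change -0.95, standard error 0.0690, adjusted p = 4.30e-08). Etv5 was at 121, 122 and 134 CPM with 4OHT alone and 14.0, 14.0 and 13.4 CPM with PRMT5 (E444Q) (log2 fold change -3.18, standard error 0.0744, adjusted p = 1.04e-12). All 3 libraries with the construct were thus below all 3 with 4OHT alone for receptor, co-receptor and target. T (-4.86) and the neurofilament gene Nefm (-3.46) fell further, and the single member that rose was the chemokine receptor Cxcr4 (1.27). In the wider list of regulators of undifferentiated spermatogonia, 8 of 24 rose and 13 fell. Pdx1 fell from 1.90 to 0.0530 CPM, the latter close to the counting floor of 12 counts per library, while Neurog3 (1.80), Utf1 (1.19) and Foxo1 (1.01) rose. Neurog3 marks progenitors rather than the most primitive cells, and Id4, a marker of the latter, was at 27.4 ± 1.76 CPM and 26.2 ± 0.378 CPM (log2 fold change -0.06, adjusted p = 0.547).

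Receptor tyrosine kinases of this kind drive the ERK cascade, and cells report its output through feedback inhibitors of the DUSP and SPRY families. The list of 16 ERK feedback genes also holds other genes, such as Egr1 and Etv5, and the latter was counted in the lists above too. Of the 16 genes 15 fell, 11 of them at least 2-fold, against 26.5% of all genes that fell (median -1.71). Dusp6, the cytosolic ERK phosphatase, was at 122, 125 and 135 CPM with 4OHT alone and 17.8, 15.6 and 17.4 CPM with PRMT5 (E444Q), without overlap (log2 fold change -2.91, standard error 0.0655, adjusted p = 7.61e-13). Other falls were in Dusp4 (-3.37), Spry4 (-3.02) and Spry2 (-1.97). The remaining gene, Egr1, an immediate early gene, had a log2 fold change of -0.03 (adjusted p = 0.648). Among 15 genes of AP-1 and other immediate early factors, 1 rose and 12 fell, among them Fosl1 (-2.21), Egr3 (-2.13) and Myc (-1.77). Of 14 targets of BMP and TGF-beta, 1 rose and 11 fell, including Ltbp2 (-2.24), Cyr61 (-1.98) and Ctgf (-1.78). The fibroblast markers fell with these groups (values below), and their part in these lists was not tested. WNT, Notch and STAT targets were mixed, with 6 of 14 rose and 4 fell, 6 of 15 rose and 5 fell and 3 of 10 rose and 3 fell. Of the STAT list, Pim1, a serine/threonine kinase, rose by 1.46 and Stat3 fell by 0.41.

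Genes of spermatogonial differentiation and meiosis moved the other way. The spermatogonia markers rose with these groups (median 0.77), and their part in these lists was not tested. Some genes, such as Stra8, are in both the differentiation and the meiotic list. Of 17 differentiation regulators, 11 rose and 2 fell, against 29.5% and 26.5% of all genes and 34.0% and 31.8% of protein-coding genes. Kit, the receptor for stem cell factor that marks differentiating spermatogonia, was at 17.2, 14.7 and 16.8 CPM with 4OHT alone and 79.2, 80.3 and 83.7 CPM with PRMT5 (E444Q), 4.99-fold higher (log2 fold change 2.32, standard error 0.0635, adjusted p = 4.20e-12). Stra8, the retinoic acid target required for entry into meiosis, was at 9.03, 10.7 and 10.6 CPM with 4OHT alone and 38.5, 34.8 and 34.2 CPM with PRMT5 (E444Q) (log2 fold change 1.82, standard error 0.0784, adjusted p = 2.49e-10). The libraries of both groups were fully separated for each of the 2 genes. The falls in the list were Crabp1 (-2.08) and Ccnd2 (-1.43), a retinoic acid binding protein and a cyclin. Genes that receive or metabolize retinoic acid did not follow Stra8: 3 of 20 rose and 11 fell, with falls in Rxrg (-3.22), Crabp1 (-2.08) and Crabp2 (-1.40) and rises in Rbp4 (1.43) and Aldh1a2 (0.67).

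Of the meiotic prophase genes 27 of 28 were tested, and 24 rose while Spo11, which encodes the enzyme that makes meiotic double-strand breaks, was the single one that fell (-2.08). Their median log2 fold change was 0.709, and 2 members did not pass the test. Sycp1, a transverse filament of the synaptonemal complex, was at 33.1, 31.9 and 27.9 CPM with 4OHT alone and 173, 154 and 164 CPM with PRMT5 (E444Q) (log2 fold change 2.40, standard error 0.0727, adjusted p = 9.77e-12). Sycp2 (2.54) and Sycp3 (1.46), of its lateral elements, and the meiotic recombinase Dmc1 (0.71) rose as well. The piRNA pathway, in which PIWI proteins and their partners silence transposons in the germline, gave 21 rises among 22 genes, with a median of 0.633. Mael, a factor of that pathway, was at 177, 152 and 157 CPM with 4OHT alone and 359.9, 349 and 353 CPM with PRMT5 (E444Q) (log2 fold change 1.13, standard error 0.0552, adjusted p = 8.59e-10), and the PIWI protein gene Piwil4 rose with it (1.10). The remaining gene, Tex19.1, did not pass the test (log2 fold change -0.02, adjusted p = 0.715).

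**Figure D3:**
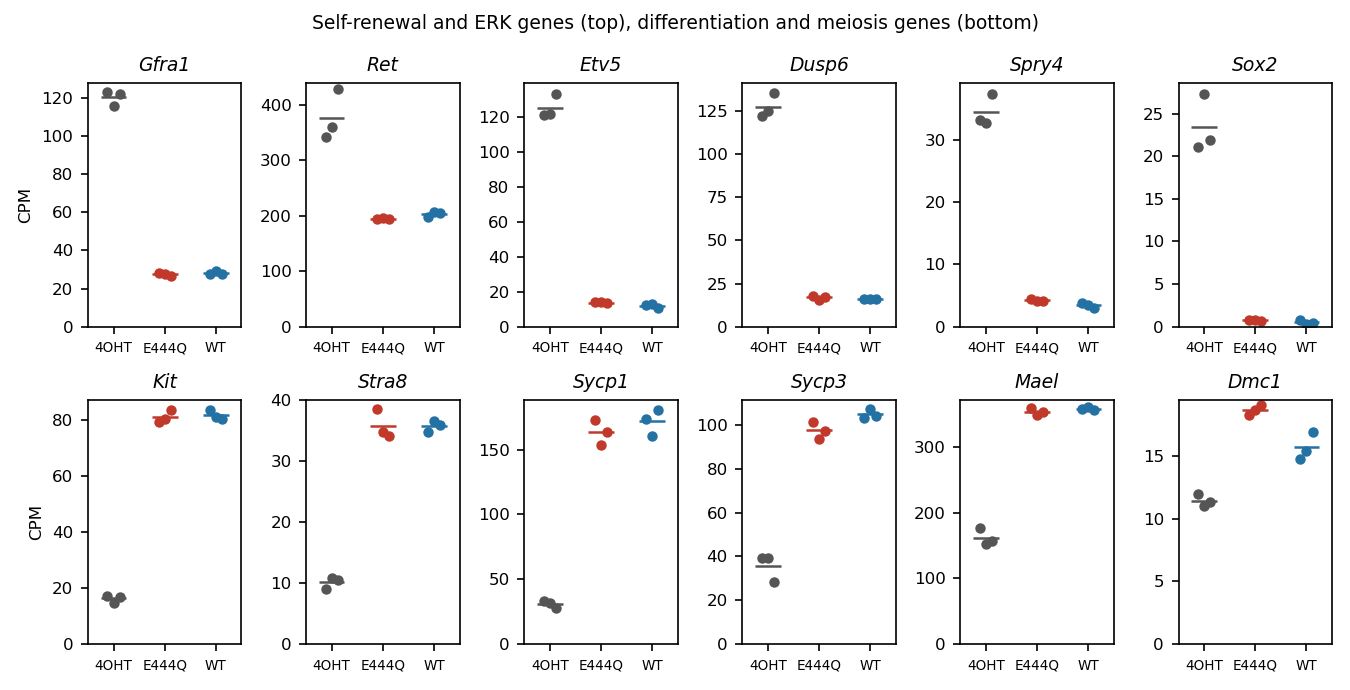
CPM in each library (points) and group means (lines) of 6 genes of GDNF and ERK signalling and pluripotency (Gfra1, Ret, Etv5, Dusp6, Spry4 and Sox2) and 6 genes of differentiation and meiosis (Kit, Stra8, Sycp1, Sycp3, Mael and Dmc1), for 4OHT alone, PRMT5 (E444Q) and PRMT5 (WT). In each panel the 3 libraries with 4OHT alone stand clear of the 3 with PRMT5 (E444Q).

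In the MAGE and Rhox families, largely X-linked genes of which many are active mainly in germ cells, most tested members rose too. Of 19 tested MAGE genes, 13 rose and 4 fell (median 0.972), and of 21 Rhox homeobox genes 14 rose and 1 fell (median 1.10, or 1.068 with 2 genes at the counting floor set to their bound). The summed MAGE level did not rise, at 736 to 860 CPM with 4OHT alone and 757 to 773 CPM with PRMT5 (E444Q). The Rhox genes summed to 44.1 to 49.1 CPM with 4OHT alone and 102 to 105 CPM with PRMT5 (E444Q). Magea10 was at 2.77, 2.38 and 2.87 CPM with 4OHT alone and 18.1, 17.1 and 15.6 CPM with PRMT5 (E444Q) (log2 fold change 2.66, standard error 0.0992, adjusted p = 6.91e-11), with every library with the construct above every one without. Rhox2a rose by 1.72 on the log2 scale. The MAGE genes that fell, Magee1 (-2.14), Mageh1 (-1.01) and Maged2 (-0.97), belong to branches of the family that somatic tissues also express. Members of both families are near-copies of each other, and single members are uncertain for that reason. The pluripotency factors had no common direction: of 18 tested, 9 rose and 7 fell, with rises in Esrrb (1.63), Dppa5a (1.46) and Dppa4 (1.37) and falls in Sox2 (-4.94), Pou5f1 (-1.01) and Tbx3 (-0.76).

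Most genes of cell division rose, all but 1 in each list by less than 2-fold. Of 36 DNA replication genes 30 rose and 1 fell (median 0.408), and of 31 genes of the mitotic spindle and kinetochore 27 rose and 2 fell (median 0.436). Tested against a fold of 1.5 instead of 0, 5 replication genes and 7 mitotic genes stayed called higher. Pcna, the sliding clamp of the replication fork, was at 77.6, 71.6 and 70.8 CPM with 4OHT alone and 161, 154 and 159.8 CPM with PRMT5 (E444Q) (log2 fold change 1.11, standard error 0.0495, adjusted p = 3.45e-10), the largest rise among the replication genes. Nusap1, a spindle protein, rose from 16.1 to 38.8 CPM (1.27), and Spc25 (0.93), Cenpf (0.86), Top2a (0.61) and Kif11 (0.52) rose with it, whereas Cdc20 (-0.38) and Ccnb2 (-0.34) fell.

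Promoters of mitotic genes commonly carry the cell cycle genes homology region (CHR), here searched as TTTGAA on both strands in the 300 bases from 250 before to 50 after the RefSeq start. It was found in 69.2% of the 26 mitotic genes with a RefSeq promoter, against 12.7% of all 14095 tested genes with one, and in 15.8% and 12.4% of the promoters of genes called at least 2-fold higher and lower. Below are the 250 bases upstream of the start of 2 mitotic genes that rose together, to show where the element sits (RefSeq, GRCm38.p6, 5′ to 3′ on the gene's strand, matches in capitals). The Top2a stretch is chr11:99024190-99024439, minus strand, and that of Kif11 is chr19:37376132-37376381, plus strand. Both genes were chosen among members that rose because they hold a match, so its presence in them is no result. A match describes letters in a window and is not a measured binding site.
Top2a: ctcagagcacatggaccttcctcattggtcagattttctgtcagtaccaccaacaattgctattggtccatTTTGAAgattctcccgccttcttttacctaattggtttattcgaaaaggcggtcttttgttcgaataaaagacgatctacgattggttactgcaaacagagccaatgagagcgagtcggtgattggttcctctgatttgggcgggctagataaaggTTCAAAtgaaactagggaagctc
Kif11: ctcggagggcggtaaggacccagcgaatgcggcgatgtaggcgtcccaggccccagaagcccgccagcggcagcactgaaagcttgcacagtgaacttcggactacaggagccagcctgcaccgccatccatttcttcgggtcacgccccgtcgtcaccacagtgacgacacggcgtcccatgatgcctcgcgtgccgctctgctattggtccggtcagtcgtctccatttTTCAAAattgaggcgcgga

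Regulators of the cell cycle moved in a mixed way around this. Ccnd1, the cyclin that links mitogens to the G1 phase, was at 613, 626 and 601 CPM with 4OHT alone and 93.0, 96.1 and 92.5 CPM with PRMT5 (E444Q), 6.53-fold lower and without overlap (log2 fold change -2.71, standard error 0.0477, adjusted p = 1.13e-13). Ccne2 (1.15) and Ccne1 (0.65), cyclins of S phase entry, rose. The inhibitors Cdkn2b (-2.32), Cdkn1a (-1.49) and Cdkn2a (-1.39) fell, and Cdkn2d rose (0.89).

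Targets of p53 fell almost as a block: of 20 such genes 1 rose and 19 fell, 11 at least 2-fold, with a median of -1.12. Cdkn1a, the p21 inhibitor, was at 431, 453 and 417 CPM with 4OHT alone and 151, 155 and 156 CPM with PRMT5 (E444Q) (log2 fold change -1.49, standard error 0.0483, adjusted p = 1.92e-11). Mdm2, the ubiquitin ligase that limits p53, was at 724, 664 and 701 CPM with 4OHT alone and 273, 261 and 271 CPM with PRMT5 (E444Q) (log2 fold change -1.38, standard error 0.0482, adjusted p = 4.01e-11). Neither gene overlapped between the groups. The membrane protein gene Perp (-2.63), Plk2 (-2.06) and Zmat3 (-1.72) fell as well, and Sesn1 was the exception that rose (0.83). Many p53 targets are also expressed by fibroblasts, whose markers fell too, and their part in this was not tested. Among 16 members of the BCL2 family 3 rose and 11 fell, with falls in the survival factor Bcl2 (-1.88) and in the killers Bak1 (-1.58) and Bbc3 (-1.10), and rises in Bcl2a1b (2.70) and Bik (1.56). Repair by homologous recombination and the Fanconi pathway gave 18 rises among 25 genes, with the other 7 not called (median 0.416), among them Rad54b (1.92), Brca2 (1.44) and Rad51c (1.18). Several of these genes also act in meiosis.

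The spliceosomal Sm proteins are classic substrates of PRMT5, and their genes rose modestly. In the list of Sm, LSm and SMN complex genes 17 of 26 rose and 2 fell (median 0.316), led by Lsm8 (0.81), Snrpf (0.68) and Lsm2 (0.61), while Gemin7 (-0.40) and Gemin4 (-0.39) fell. Of 35 SR proteins and hnRNPs, which choose splice sites, 22 rose and 2 fell, and Hnrnph3 rose the most (1.03). Against a 1.5-fold threshold 1 gene of each list stayed called higher. Of 28 genes of ribosome biogenesis 18 rose and 2 fell, including the nucleolar proteins Nop10 (0.81) and Npm1 (0.56). Counts per gene do not show splicing, and no exon or intron usage was measured.

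Genes of translation had no common direction. Initiation factors gave 9 rises and 10 falls among 32, with Eif3j1 the largest (1.11) and uncertain because of a near-identical copy. Cytosolic aminoacyl-tRNA synthetases gave 1 rise and 11 falls among 20, none of them 2-fold, led by Cars (-0.68), Rars (-0.46) and Aars (-0.42). Of 90 genes of cytosolic ribosomal proteins 21 rose and 15 fell, and these counts depended on single control libraries: without 4OHT replicate 1 they were 32 and 11, and without 4OHT replicate 3 they were 19 and 43. The largest rises there, Rps18 (3.48), Rps2 and Rpl29 (2.58), are of genes with many pseudogene copies and are uncertain. Nuclear-encoded subunits of the respiratory chain did the same. Complex I subunits gave 4 rises and 7 falls among 36 with a median of -0.004, but 10 and 6 without 4OHT replicate 1 and 4 and 18 without 4OHT replicate 3. The 33 subunits of complexes III, IV and V gave 6 and 5, then 13 and 4, and 7 and 13.

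Among the writers and readers of chromatin, changes were small and partly opposed. Dnmt3b (0.97) and the cofactor Dnmt3l (0.73), which set new DNA methylation in germ cells, rose along with the demethylase Tet1 (0.89), and Dnmt3a (-0.59) and Tet2 (-0.91) fell. Of 24 Polycomb genes 12 rose and 3 fell. Ezh2, the methyltransferase of Polycomb complex 2, rose from 33.1 to 54.0 CPM (0.71) and Cbx2, a reader of its mark, by 0.98, whereas Cbx6 fell (-0.85). Imprinted genes, expressed from one parental copy, were split, with 12 of 32 rose and 13 fell. Peg10 rose from 29.9 to 84.7 CPM, and Impact (-1.77), Gnas (-1.36) and Grb10 (-1.31) fell.

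Some gene families arranged in clusters on a chromosome moved by cluster. The clusters were separated after their values had been seen. Hox genes, which pattern the body axis, gave 7 rises and 23 falls among 38. All 9 genes of the Hoxc cluster fell at least 2-fold (median -1.95), and the Hoxa and Hoxd clusters gave 6 falls of 11 and 5 of 8. In the Hoxb cluster 5 of 10 rose and 3 fell (median 0.06). Hoxc6 was at 24.6, 25.4 and 27.8 CPM with 4OHT alone and 6.94, 5.96 and 6.36 CPM with PRMT5 (E444Q), without overlap (log2 fold change -2.02, standard error 0.0972, adjusted p = 7.35e-10). Hoxd1, by contrast, rose from 0.107 to 1.64 CPM (3.95).

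The clustered protocadherins, adhesion proteins of which neurons and other cells each use a subset, were the family with the most one-sided fall. Of 57 genes 42 were tested, and 32 of these fell, 31 at least 2-fold, while the other 10 were not called (median -1.72). By cluster the falls were 4 of 5 in alpha, 7 of 15 in beta and 21 of 22 in gamma. Pcdhgc3, a gamma member, was at 254, 293 and 336 CPM with 4OHT alone and 56.3, 57.6 and 54.5 CPM with PRMT5 (E444Q) (log2 fold change -2.39, standard error 0.0947, adjusted p = 1.18e-10). All 3 control libraries were above all 3 with the construct. Members of a cluster share their last exons, so reads there may be counted for several members at once, and they are not independent measurements.

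Zinc finger genes named Zfp, most of which encode KRAB repressors of transposons, rose more often than they fell, with 178 of 397 rose and 79 fell (median 0.190, or 0.173 with 5 genes at the floor set to their bound). The excess was large in 2 clusters. Of the 18 tested Zfp genes on chromosome 4 between 145 and 148 Mb 16 rose, 15 of them at least 2-fold, and the other 2 were not called. Zfp981, one of them, was at 0.264, 0.215 and 0.156 CPM with 4OHT alone and 9.28, 8.65 and 9.38 CPM with PRMT5 (E444Q) (log2 fold change 5.44, standard error 0.162, adjusted p = 8.28e-12), and Zfp984 rose from 2.24 to 21.4 CPM, Zfp979 from 3.88 to 18.9 CPM and Zfp600 from 0.171 to 4.87 CPM. Each of the 4 genes also stood at a like level with PRMT5 (WT), at 9.99, 24.5, 21.5 and 5.23 CPM. On chromosome 13 between 60 and 70 Mb 23 of 29 rose and 1 fell. On all chromosomes other than 4 and 13, 132 of 330 rose and 73 fell. The genes of these clusters are close copies of each other, and how reads that fit several of them were assigned is not given in the sources used here.

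**Figure D4:**
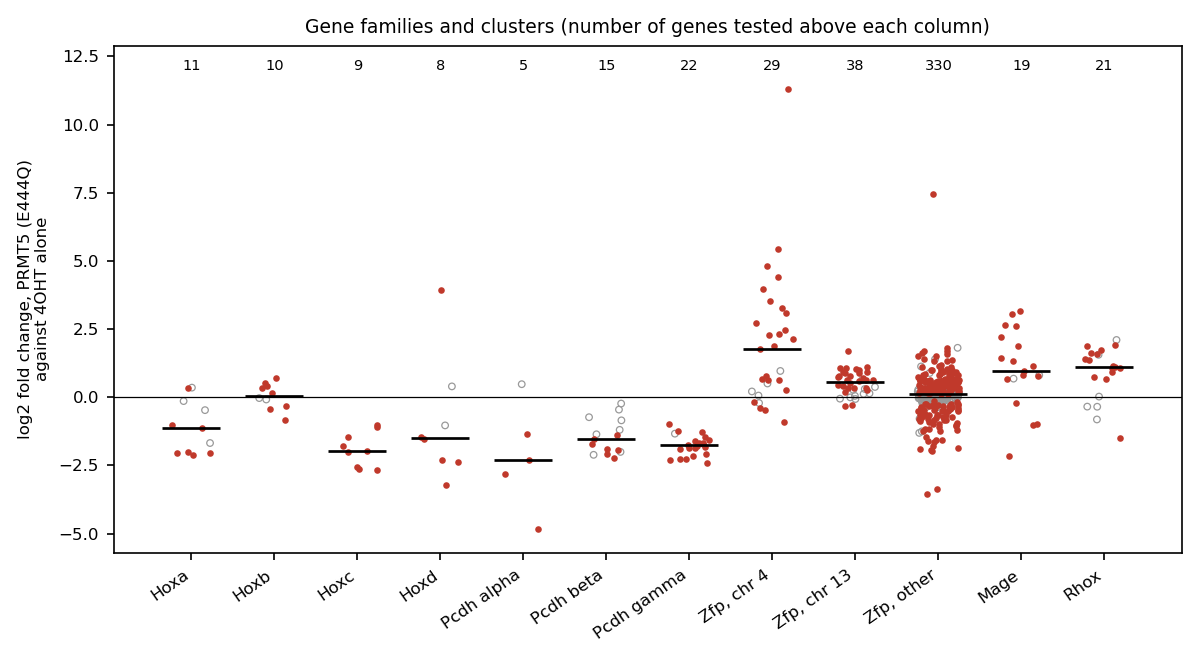
Log2 fold change of PRMT5 (E444Q) against 4OHT alone (axis of values) for the tested members of gene families, one point per gene, with called members coloured. Members of the Hoxc cluster all lie below 0 and 32 of the 42 tested clustered protocadherins are called lower, while the Zfp genes spread upward. The highest Zfp point is Zfp987, which was at 0 counts in every library with 4OHT alone, so that its height depends on the prior count and is no measured fold.

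In metabolism, most genes of fatty acid synthesis and of glycolysis fell, and the other lists were mixed. Fatty acid synthesis gave 2 of 13 rose and 10 fell (median -0.549), with falls in the elongase Elovl6 (-1.61) and the desaturases Scd1 (-1.26) and Scd2 (-1.17). Cholesterol synthesis and uptake gave 6 of 25 rose and 13 fell. Of its enzymes, Tm7sf2, a sterol reductase, fell (-0.99), and Fdps, which makes farnesyl diphosphate, rose slightly (log2 fold change 0.34, adjusted p = 2.06e-05). Glycolysis gave 5 of 23 rose and 15 fell, with Hk2, the inducible hexokinase, lower (-1.32) and Gapdh higher (0.48). Of 29 NRF2 targets and antioxidant enzymes 9 rose and 16 fell. Slc7a11, the cystine importer, went from 18.6 to 5.14 CPM (log2 fold change -1.86, adjusted p = 4.28e-09), Hmox1, which degrades haem, from 399.9 to 112 CPM, and Nqo1, a quinone reductase, from 15.3 to 5.09 CPM. The peroxiredoxins Prdx1 (0.44) and Prdx4 (0.83) and the glutathione reductase Gsr (0.71) rose, so the list did not move as one.

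Targets of the stress factor ATF4 fell in 12 and rose in 4 of 20, with Chac1 (-1.33) and Cebpb (-1.26) lower and Cth higher (0.68). Chaperones of the endoplasmic reticulum rose in 11 and fell in 3 of 18, among them Hspa5, the BiP chaperone (0.50). Lysosome genes fell in 21 of 27, led by the proteases Ctsl (-1.88) and Ctsb (-1.53), with Ctss (1.06) and Ctsk (0.65) higher. Serine and one-carbon metabolism was split, with 7 of 14 rose and 5 fell. The methionine cycle supplies the methyl donor of PRMT5, and Mtr, methionine synthase, rose by 0.67 on the log2 scale.

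The extracellular matrix fell broadly. Of 34 collagen and laminin genes 2 rose and 24 fell (median -0.766), and all 7 fibrillar collagens fell. Of 27 matrix glycoproteins and proteoglycans 4 rose and 20 fell, and of 27 matrix proteases and their inhibitors 3 rose and 23 fell, 15 of the latter at least 2-fold (median -1.12). Col1a1, the main fibrillar chain, was at 1153, 1435 and 1436 CPM with 4OHT alone and 737, 746 and 742 CPM with PRMT5 (E444Q) (log2 fold change -0.85, standard error 0.0706, adjusted p = 1.61e-07). Tnc, tenascin C, was at 1885, 1855 and 2282 CPM with 4OHT alone and 311, 320.3 and 315 CPM with PRMT5 (E444Q) (log2 fold change -2.67, standard error 0.0716, adjusted p = 3.64e-12). Mmp3, stromelysin 1, was at 514, 472 and 480.0 CPM with 4OHT alone and 58.4, 62.4 and 60.6 CPM with PRMT5 (E444Q) (log2 fold change -3.01, standard error 0.0557, adjusted p = 1.67e-13). None of these 3 genes overlapped between the groups, and the glycoprotein and the protease fell far more than the collagen. Exceptions that rose were Col12a1 (0.65), Fbn2 (0.96), Adamts15 (1.39) and Adamts5 (0.83).

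The lowered matrix was accompanied by lower fibroblast markers: 11 of 12 fell and 1 rose (median -0.878), and the 12 summed to 9300.0 to 11100.0 CPM with 4OHT alone and 5000.0 to 5070.0 CPM with PRMT5 (E444Q). Of these markers, Col1a1, Col1a2, Col3a1 and Fn1 are matrix genes themselves, and Fn1 alone went from 4957 to 1822 CPM. The marker sum is thus not independent of the matrix genes. The largest falls were in Prrx1 (-1.63), Fn1 (-1.44) and Pdgfrb (-1.43). Dcn, decorin, went from 394 to 443 CPM (log2 fold change 0.17, adjusted p = 0.0106), a rise that was no longer called without MU replicate 1 or MU replicate 3. Of 4 peritubular and smooth muscle markers 3 fell, with sums of 212 to 218 CPM with 4OHT alone and 58.8 to 63.7 CPM with PRMT5 (E444Q). How far the matrix genes follow the fibroblast markers was not tested.

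Of the growth factor ligands of the niche 1 of 25 rose and 20 fell, 15 of the falls at least 2-fold, with a median of -1.47. Lif, the cytokine that supports stem cells in culture, went from 66.6 to 6.66 CPM (log2 fold change -3.32, adjusted p = 1.86e-11). Csf1, the macrophage growth factor that also acts on SSCs, was at 589, 634 and 716 CPM with 4OHT alone and 119, 120.1 and 120.3 CPM with PRMT5 (E444Q) (log2 fold change -2.43, standard error 0.0638, adjusted p = 2.93e-12). Gdnf itself went from 5.89 to 1.57 CPM (-1.91) and Kitl, which encodes the ligand of KIT, from 21.0 to 9.58 CPM (-1.13). The chemokine Cxcl12, made by niche cells, fell too (-2.20), and its receptor gene Cxcr4 rose as given above. Fgf8 was the ligand that rose (1.43).

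The stromelysins Mmp3 and Mmp10 and the collagenase Mmp13 lie together on chromosome 9 and fell together, with log2 fold changes of -3.01, -5.50 and -1.12. Mmp12, of the same list, fell too (-2.80) and is not printed below. AP-1 sites are known elements of such promoters. The letters TGANTCA, searched on both strands, were in 4 of 18 promoters of the protease list (22.2%) against 5.8% of all 14095. They were in 9.73% of promoters of genes called at least 2-fold lower and in 7.51% of those called at least 2-fold higher. The 250 bases before the starts of the 3 genes are printed with the match in capitals (RefSeq, GRCm38.p6). The 3 were chosen among members that fell because they hold a match, so its presence in them is no result. They are chr9:7502092-7502341, plus strand for Mmp10, chr9:7445572-7445821, plus strand for Mmp3 and chr9:7272264-7272513, plus strand for Mmp13, and the matches begin 63, 46 and 35 bases before the start.
Mmp10: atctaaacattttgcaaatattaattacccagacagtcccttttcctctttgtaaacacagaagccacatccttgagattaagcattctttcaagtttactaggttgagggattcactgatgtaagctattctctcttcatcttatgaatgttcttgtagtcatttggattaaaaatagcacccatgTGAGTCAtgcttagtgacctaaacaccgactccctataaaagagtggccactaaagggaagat
Mmp3: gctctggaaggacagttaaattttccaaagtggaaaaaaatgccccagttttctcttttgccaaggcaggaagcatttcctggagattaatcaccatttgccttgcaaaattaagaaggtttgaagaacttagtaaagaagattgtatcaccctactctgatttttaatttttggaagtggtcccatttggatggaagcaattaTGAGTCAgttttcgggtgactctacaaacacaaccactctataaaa
Mmp13: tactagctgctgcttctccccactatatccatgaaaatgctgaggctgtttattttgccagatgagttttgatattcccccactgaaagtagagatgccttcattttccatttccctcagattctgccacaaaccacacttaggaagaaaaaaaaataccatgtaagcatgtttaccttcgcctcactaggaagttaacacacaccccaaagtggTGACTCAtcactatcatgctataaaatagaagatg

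Genes of adhesion and guidance showed further shifts. Of 19 tested cadherins 4 rose and 11 fell, with Cdh6 (-3.48) and Cdh19 (-2.60) lower. Cdh20 was called higher and was at or under the counting floor in every library with 4OHT alone, and its mean went from 0.0568 to 1.01 CPM. Semaphorins and plexins gave 5 of 29 rose and 21 fell, led by Plxna2 (-2.90), Plxna4 (-2.73) and Sema3a (-2.65). Among 29 tested integrins 10 rose and 12 fell. The rises included Itgam (3.66) and Itgb2 (3.10), 2 integrins of leukocytes, and Itga9 (1.68), and the falls Itga2 (-3.19), Itga4 (-2.27) and Itgav (-1.83). Ephrins and their receptors were split (5 of 22 rose and 8 fell), with Epha2 the largest fall (-3.35).

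Genes of macrophages and other leukocytes made up the most one-sided rise. All 10 macrophage markers rose at least 2-fold, with a median log2 fold change of 3.19, and summed to 23.4 to 25.6 CPM with 4OHT alone and 144 to 149 CPM with PRMT5 (E444Q). Ptprc, Spi1 (the myeloid factor PU.1) and Fcer1g led them, at 4.07, 4.05 and 3.94. In the longer list of macrophage and leukocyte genes 33 of 36 rose, 30 of them at least 2-fold, and the other 3 were not called (median 2.24, or 2.08 with 2 genes at the floor set to their bound). This list shares members with the markers, among them Ptprc and Itgam, and is not independent of them. Lyz2 was at 158, 151 and 145 CPM with 4OHT alone and 953, 954 and 925 CPM with PRMT5 (E444Q), without overlap (log2 fold change 2.64, standard error 0.0476, adjusted p = 1.34e-13). Clec4e, a receptor for microbial glycolipids, was at 0.514, 0.0717 and 0.112 CPM with 4OHT alone and 7.15, 8.18 and 7.24 CPM with PRMT5 (E444Q) (log2 fold change 5.07, standard error 0.347, adjusted p = 2.48e-08). Csf1r, the receptor for CSF1, rose by 2.75, while the macrophage receptor gene Trem2 (log2 fold change -0.83, adjusted p = 0.0706) did not pass the test, nor did 2 genes below 1 CPM in every library. Trem2 was called lower in a fit to the 6 libraries compared, with counts divided by 4, and without OE replicate 3. A few cells with high expression and many cells with low expression cannot be told apart here.

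The immune genes did not all rise. Complement component C1q and apolipoprotein E, which tissue macrophages make in large amounts, fell: C1qa by 2.49, C1qb by 2.27, C1qc by 2.66 and Apoe by 2.22 on the log2 scale. Apoe went from a mean of 51.7 to 11.1 CPM, without overlap. C4b (3.65) and the receptor gene C5ar1 (2.83) rose. Of 63 chemokine and receptor genes 39 were tested, with 13 rises and 8 falls. Their median was -0.282, with 17 members above 0 and 22 below, and it ranged from -0.379 to 0.303 over the settings tried. Ccl3 (4.17), Cxcl3 (3.46) and Ccl9 (3.25) rose, and Cxcl12 (-2.20), Ccl2 (-1.90) and Ccl7 (-1.33) fell. Which cells made these transcripts was not tested. Interferon-stimulated genes gave 9 of 34 rose and 11 fell (median 0.006), with Oas3 (1.36) and Zbp1 (1.33) up and Ifit3 (-1.83) and Ifit2 (-1.60) down. Class I antigen presentation was evenly split, with 6 of 15 in each direction, and B2m fell (-0.97).

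Some large families stayed near the background of all genes. Of 321 tested solute carriers 98 rose and 111 fell, and of 60 tripartite motif genes 21 and 18. Others leaned to one side. Proteasome genes rose in 19 of 38 and fell in 9. S100 genes, small calcium-binding proteins, fell in 7 of 13 and rose in 1, among them S100a6 (-1.91), and genes named for tubulins and their nucleating complex fell in 12 of 23 and rose in 7, with the neuronal chain Tubb2b the largest fall (-2.16). Kinesins, motors of the microtubule, rose in 22 of 37 and fell in 7, with Kif20b, a mitotic member, higher (1.21) and the axonal motor Kif1a lower (-2.20). Of 1107 olfactory receptor genes 43 passed the filter on low counts. Of 54 tested genes of replication-dependent histones 6 rose and 9 fell.

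The PU box, the core GAGGAA of sites for the myeloid factor PU.1, was in 65.4% of 26 promoters of the macrophage and leukocyte list against 27.2% of all 14095, on either strand. It was in 30.4% of promoters of genes called at least 2-fold higher and in 29.4% of those called at least 2-fold lower. Clec4e is printed as a member with 2 matches in the 250 bases before its start (chr6:123289872-123290121, minus strand, RefSeq, GRCm38.p6, matches in capitals).
Clec4e: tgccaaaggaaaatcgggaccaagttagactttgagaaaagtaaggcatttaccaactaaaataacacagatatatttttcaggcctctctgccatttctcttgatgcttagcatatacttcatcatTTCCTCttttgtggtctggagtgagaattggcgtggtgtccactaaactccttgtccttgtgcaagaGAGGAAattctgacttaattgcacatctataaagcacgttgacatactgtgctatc

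**Figure D5:**
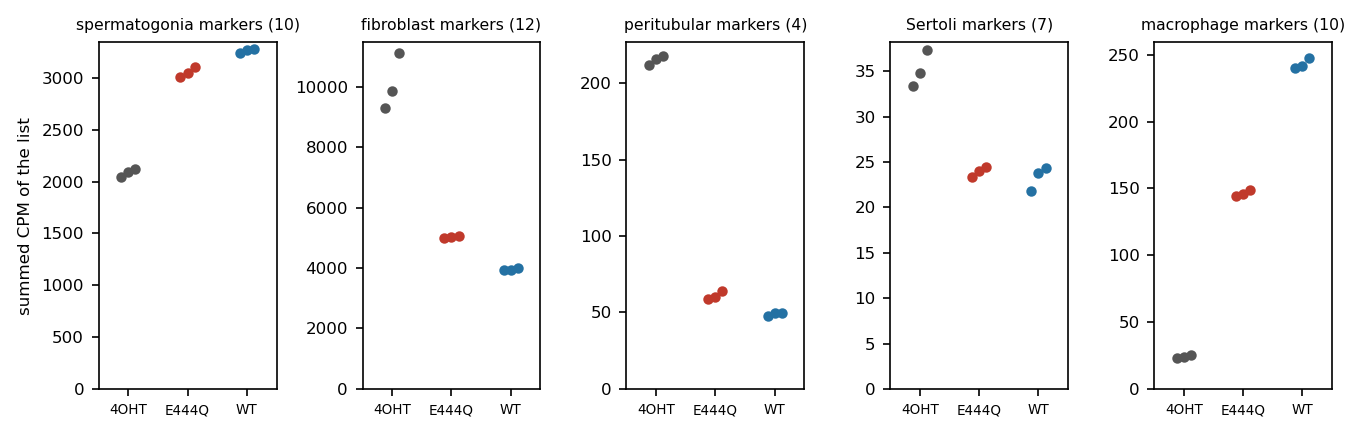
Summed CPM of marker lists in each library (one panel per list, one point per library) for 4OHT alone, PRMT5 (E444Q) and PRMT5 (WT). The macrophage sums are 23.4 to 25.6 CPM with 4OHT alone and 144 to 149 CPM with PRMT5 (E444Q), and the fibroblast sums fall from between 9300 and 11100 CPM to between 5000 and 5070 CPM.

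Markers of other testicular cells were low or mixed. The Sertoli list summed to 33.4 to 37.4 CPM with 4OHT alone and 23.4 to 24.5 CPM with PRMT5 (E444Q), and its 7 tested members gave 3 rises and 3 falls, or 1 rise without 4OHT replicate 1. The receptor gene Fshr was below the filter. Of 6 Leydig markers 4 were below the filter, of 5 endothelial markers 1 rose and 2 fell, and all 3 erythroid markers were below the filter. Of 4 T and B cell markers 3 were tested. Cd3e was at or under the floor of 12 counts in every library with 4OHT alone and at 1.04, 1.13 and 1.33 CPM with PRMT5 (E444Q).

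Whether a response belongs to the inactive enzyme was addressed by the direct contrast with PRMT5 (WT). At an adjusted p below 0.05, the mutant had 475 genes above (2.12%) and 237 genes below (1.06%) their level with the wild-type enzyme. Of the 12571 genes called against 4OHT alone, 639 (5.08%) also differed between the constructs. Of these, 371 had fallen and were higher than with PRMT5 (WT), and 166 had risen and were lower. A further 57 had risen and were higher still than with PRMT5 (WT), and 45 had fallen and were lower still. The 3 PRMT5 (E444Q) libraries lay together on the first principal component, at 47.3 to 49.9, with 4OHT alone at -122.3 to -119.9 and PRMT5 (WT) at 67.0 to 75.5. OE replicate 1 stood apart from the rest on the second component. The counts between the constructs depended on single libraries. Without one MU library at a time they were 256 to 277 higher and 144 to 155 lower, without OE replicate 1 they were 312 and 175, without OE replicate 2 they were 314 and 163, without OE replicate 3 they were 321 and 151, and without 4OHT replicate 3 they were 686 and 413.

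Genes of macrophages and of matrix were among those that separated the constructs. Of the 10 macrophage markers 8 were below their level with PRMT5 (WT), where they summed to 240.0 to 248 CPM, and 5 were without MU replicate 2. Of the 36 macrophage and leukocyte genes 23 were lower and 1 was higher. Chil3 was at 1654, 2041 and 2033 CPM with PRMT5 (WT), about 2-fold above its level with the mutant (adjusted p = 1.09e-05). Car4 (-2.49), Cybb (-1.81) and Lpl (-1.64) differed in the same direction on the log2 scale of PRMT5 (E444Q) against PRMT5 (WT). Of the 12 fibroblast markers 11 were higher with the mutant, as were 17 of 27 matrix glycoproteins, 15 of 34 collagens and laminins and 10 of 25 niche ligands. The fibroblast sums were 3920.0 to 3990.0 CPM with PRMT5 (WT). Col1a1 (0.31), Mmp3 (0.41), Csf1 (0.48) and Kitl (0.62) were higher with PRMT5 (E444Q), each between the levels of the 2 other groups.

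In the germ cell lists no member passed edgeR's test between the constructs, among 12 GDNF pathway genes, 24 regulators of undifferentiated cells, 17 of differentiation, 27 meiotic and 22 piRNA genes. At an unadjusted p below 0.05 there were 3, 6, 1, 3 and 0 such genes in these lists. DESeq2 called 1, 0, 1, 1 and 0 of them, and limma voom 1, 1, 1, 2 and 0. Gfra1 was at 27.8, 29.1 and 27.9 CPM and Kit at 83.6, 81.1 and 80.3 CPM with PRMT5 (WT), and the mutant differed from these by -0.04 (standard error 0.0510) and -0.01 (standard error 0.0590) on the log2 scale. A p that misses the threshold does not show that the constructs acted alike. Among p53 targets 7 of 20 were higher with the mutant, Perp by 0.58 and Cdkn1a by 0.31. Among imprinted genes 8 of 32 were higher.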

How the data were processed

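RNA-seq was analysed in 9 libraries of cultured mouse SSCs, 3 each of 4OHT alone, MU and OE, grouped by the sample labels. According to the submitters' processing notes and the paper's methods, reads were trimmed with Trimmomatic 0.39, aligned to GRCm38 with HISAT2 2.2.1 and quantified with StringTie 2.2.1. The deposited values are raw counts, whole numbers for each gene, and how these were made from the StringTie output, the strand and the treatment of reads with several alignments are not given in the sources used here. Values of 4 counts were in excess in every library, so a read pair was taken as 4 counts and the floor as 12 counts, or 3 read pairs (0.0317 to 0.158 CPM, counting error only).

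Counts were filtered with filterByExpr by group (minimum 10, total 15), scaled by TMM, fitted to all 9 libraries in edgeR 4.0.16 (R 4.3.3) and tested by quasi-likelihood with Benjamini-Hochberg adjustment (threshold 0.05). A second rule asked for at least a 2-fold change. The scripts were tested on simulated data. The members, gene lists and tests were chosen with earlier results of these data known. Lists are described by counts and medians, with no test. The text names Prmt5, the 8 higher and 8 lower protein-coding genes with the largest fold (at least 10 CPM, no overlap), the 6 and 6 with the largest CPM difference, and in each list up to 3 called members per direction (at least 1 CPM) and defining members. Some genes that this rule names are not reported here. Further genes were chosen after their values were seen. Since nothing says that replicates were separate cultures, p-values measure the spread between these libraries, which may be technical.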

Additional observations from a re-analysis of the deposited data

How the results depend on the processing

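The comparison with 4OHT alone was refitted under 11 alternatives and without each of the 9 libraries in turn. The counts of genes called higher and lower stayed within 1.5 times the reported ones except where the question itself was stricter: a filter of at least 1 CPM in 3 libraries left 15887 genes and 1338 called at least 2-fold higher, and a test against a fold of 1.5 (glmTreat) called 2432 higher and 2627 lower. Upper-quartile scaling moved the median of all genes to 0.122 and the calls to 7564 higher and 5283 lower. The contrast of the constructs was less stable. DESeq2's Wald test called 729 genes above and 383 below their level with PRMT5 (WT), limma voom 737 and 554, a fit to those 6 libraries alone 822 and 743, and glmTreat 4 and 30. Leaving out 1 library gave 256 to 686 higher and 144 to 413 lower, and the cause was not tested.

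With the replicate number as a block, the calls were 6588 higher and 5855 lower against 4OHT alone and 444 and 230 between the constructs. Deviations of same-numbered 4OHT and MU libraries showed little correlation (r from -0.0185 to 0.0285), within the range of pairs with different numbers (-0.0218 to 0.0389). OE libraries were not compared in this way. Whether libraries of the same number shared a culture or a batch is not given in the sources used here. The genes of the text whose sign turned were not called under the main settings: Clns1a (log2 fold change 0.037 with upper-quartile scaling and 0.021 without a filter), Egr1 (0.051 and 0.035), Tex19.1 (0.055 and 0.039) and Id4 (0.015 with upper-quartile scaling). Without 1 library each, Prmt1 ranged from -0.039 to 0.151, Egr1 from -0.054 to 0.0077, Tex19.1 from -0.055 to 0.0026 and Id4 from -0.112 to 0.00068. In lists with few calls in one direction, that minority count moved with single libraries, for example 0 to 4 falls among SR proteins and hnRNPs. Depth limits genes near 12 counts per library in one group, and the folds given for Clec4e, Hoxd1, T and Rxrg are imprecise for that reason.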

Other observations

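Genes differed in direction by chromosome and by kind. On chromosome 2, 40.1% of 1723 tested genes were called higher and 20.9% lower with PRMT5 (E444Q) than with 4OHT alone, against 29.5% and 26.5% of all genes, and their median log2 fold change was 0.223. All 10 bins of 20 Mb along the chromosome had a positive median, from 0.106 to 0.31. With PRMT5 (WT) the median of chromosome 2 was 0.175 against the same control libraries. On chromosome X 39.2% of 839 genes were called higher and 28% lower, and on chromosome 18, which holds the clustered protocadherins, 36.1% of 512 genes were called lower and 26.4% higher. Long intergenic RNA genes were called higher in 22.9% and lower in 10.1% of 1135, and unprocessed pseudogenes in 36% and 9.33%.

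A few genes were close to absent in one group. At or under 12 counts in each library with 4OHT alone and at 1 CPM or more in each library with PRMT5 (E444Q) were 26 genes, 21 of them protein-coding, and the reverse held for 1 pseudogene. The 12 counts equal 0.134 to 0.158 CPM with 4OHT alone and 0.0317 to 0.0607 CPM in the deeper PRMT5 (E444Q) libraries. The rule is thus stricter for absence with the construct, and the numbers of genes in the 2 directions cannot be compared. Among the 26 were genes of leukocytes, such as Mcemp1 (mean 8.14 CPM with PRMT5 (E444Q)), Clec12a (4.27 CPM) and H2-Aa (1.84 CPM), and genes with no such role, such as Trim12a (4.61 CPM) and Zfp987 (2.02 CPM). Each of these 5 was also above 1 CPM on average with PRMT5 (WT).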
